A study of Mus musculus with 24 samples.

Results

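The aquaporin water channels were followed through 3 sets of RNA-seq libraries made from a single mouse kidney RNA. The members were taken by gene symbol from the deposited allelic counts, which gave 8 of 37315 genes, *Aqp1*, *Aqp2*, *Aqp3*, *Aqp4*, *Aqp6*, *Aqp7*, *Aqp8* and *Aqp11*. Allelic imbalance (AI), the share of a gene's allelic counts that fell in the column named maternal, was given where the pooled counts of an experiment reached 50, which 7 of the 8 members did in each experiment.

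All kidney libraries came from aliquots of total RNA from the left kidney of 1 adult female 129S1/SvImJ x CAST/EiJ F1 mouse, labelled as an untreated control. Experiment 1 held 6 NEBNext Ultra Poly-A libraries from 100 ng of RNA, Experiment 2 held 6 SMARTseq v4 libraries from 10 ng, and Experiment 3 held 6 SMARTseq v4 libraries from 100 pg. Between Experiment 1 and the other experiments the kit and the input changed together, so their parts cannot be told apart, and between Experiments 2 and 3 the kit was the same and the input differed, with any step that was adjusted to it. Since every library shared 1 RNA, p-values concern at most the spread between library preparations and not between animals. Corrected tests of AI take that spread from a single factor for all genes of an experiment, and tests named as uncorrected measure counting error alone. Abl.1 and Abl.2, immortalised B cell clones of the same cross, were measured in 2 SMARTseq libraries each from 10 ng of RNA.

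Aquaporins are membrane proteins that form tetramers in which each subunit carries its own pore for water, and the aquaglyceroporins among them also pass glycerol. In the kidney, Aqp1 carries water out of the proximal tubule and the thin descending limb. In the principal cells of the collecting duct, vasopressin sends Aqp2 to the apical membrane, and water leaves the cell through Aqp3 and Aqp4 on the basolateral side.

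Counts were read at positions where the 2 parental genomes differ and summed over the exons of a gene. A read that covered several such positions was counted at each, and a gene's count depends on how many it holds, so levels are compared between libraries for the same gene and never between genes. Kidney libraries held 6138693 to 6702351 allelic counts each, and a level is given as a gene's counts per 1000000 of them (CPM). Of 11 imprinted genes with at least 50 counts, 10 took most counts from the column opposite to the allele they are known to use, so no strain or parent is assigned to a column here. X-linked genes had no counts in the kidney table, which holds *Avpr2*, the vasopressin receptor of the collecting duct, at 0. Experiment 1 replicate 1 stood apart: the quality correction constant (QCC), the factor by which the AI difference between 2 libraries exceeds binomial sampling, averaged 2.08 in its pairs with other libraries and 1.76 to 1.84 for the other libraries of that experiment. The latter averages include the pairs with replicate 1, and without it the mean QCC of Experiment 1 was 1.73. Results that changed without it are given both ways. Summed markers of the proximal tubule, where *Aqp1* and *Aqp7* are expressed, lay between 17140 and 25920 CPM in all kidney libraries, and all tubule and endothelial markers other than *Avpr2* were present.

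On the GRCm38 assembly, *Aqp2* (15:99579055-99584547, plus strand) and *Aqp6* (15:99601400-99605477, plus strand) were separated by 16852 bases. *Aqp7* (4:41033074-41048139, minus strand) and *Aqp3* (4:41092722-41098183, minus strand) were separated by 44582 bases. *Aqp1* occupied 6:55336432-55348555 on the plus strand. *Aqp11* occupied 7:97724006-97738289 on the minus strand and *Aqp8* 7:123462291-123468004 on the plus strand.

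The family is defined by a repeated pore signature, an asparagine followed in most members by proline and alanine. The coding bases of the first signature are shown for the 6 members with AI whose sequence is given here, because they show where members depart from the standard triplet, which *Aqp7* and *Aqp11* do. The aquaglyceroporin *Aqp3* keeps the triplet, so the signature does not by itself separate the classes in which the values are described. They were read 5′ to 3′ on the coding strand from the reference C57BL/6J transcripts of GENCODE M21, which is neither parental strain. Capitals mark the 9 bases of the signature.
Aqp1: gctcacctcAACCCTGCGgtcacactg
Aqp2: gcccacatcAACCCTGCTgtgactgtg
Aqp6: gcccacgccAACCCTGCTgtgaccctg
Aqp3: gcccacttgAACCCCGCTgtgaccttc
Aqp7: gcccacatgAATGCCGCAgtgactttc
Aqp11: acagctagcAACCCGTGCggcgtgatg
The signature starts at coding base 226 in *Aqp1*, 202 in *Aqp2*, 235 in *Aqp6*, 247 in *Aqp3*, 235 in *Aqp7* and 295 in *Aqp11*. *Aqp1*, *Aqp2*, *Aqp3* and *Aqp6* encode the standard triplet at 2 places, *Aqp11* at 1 and *Aqp7* at none. The second signature of *Aqp7*, from coding base 631, reads tatgcaatcAACCCATCCcgtgacctg, with serine in the last position.

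The first question was how far the measured level of each channel depended on the library preparation. In Experiment 2 against Experiment 1, *Aqp2*, *Aqp3*, *Aqp4* and *Aqp11* were higher and *Aqp1* and *Aqp6* lower by edgeR's quasi-likelihood test with TMM scaling (adjusted p below 0.05), and *Aqp7* did not pass. These 6 of 7 tested members stood against a background of 77.6% of 12012 genes called in that comparison, 38.1% higher and 39.4% lower. On plain library totals, an alternative chosen after seeing the data, *Aqp4* had a difference of −0.0035 (SE 0.045) and *Aqp7* was lower, while the other 5 kept their direction and call. TMM factors raised the median over all genes by 0.36 on the log2 scale relative to library totals in this comparison, and by 0.35 in Experiment 3 against Experiment 1. Over all genes, 4581 were called higher and 4737 lower with TMM, and 3409 higher and 6293 lower on library totals. Each log2 fold change below is with TMM unless library totals are named.

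**Figure D1:**
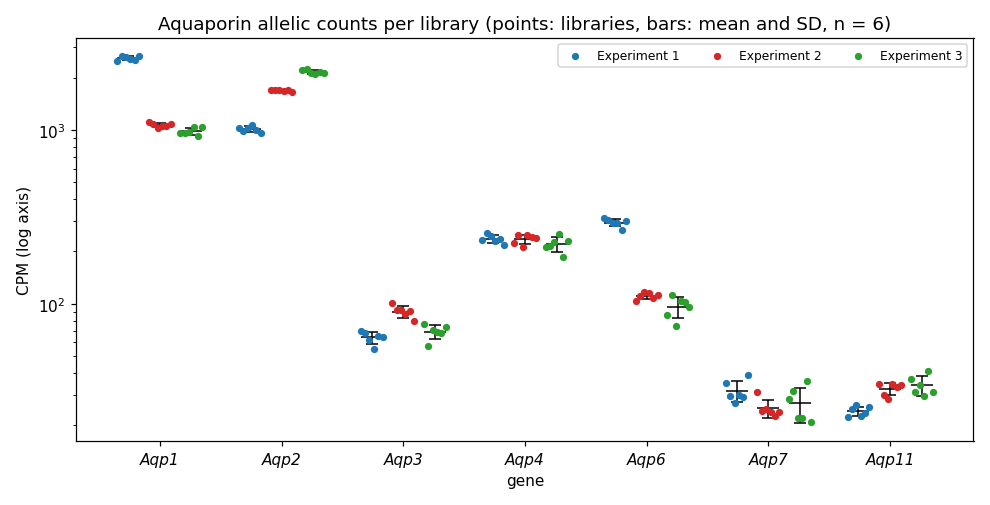
Levels of the 7 members with AI in each kidney library, as CPM on a log axis, with 1 point for each library, coloured by experiment, and a black bar for the mean and SD over 6 libraries. *Aqp1* and *Aqp6* in Experiment 1 sit above all 12 SMARTseq libraries, and *Aqp2* sits below them. Heights cannot be compared between genes.

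*Aqp1* had 2489, 2584 and 2656 CPM (lowest, median and highest of 6 libraries) in Experiment 1. It had 1032, 1071 and 1109 CPM in Experiment 2 and 918.7, 968.4 and 1046 CPM in Experiment 3. All SMARTseq libraries were below all NEBNext libraries, and the SMARTseq experiments overlapped each other. The log2 fold change was −0.91 (SE 0.024, edgeR adjusted p = 9.26e-23) in Experiment 2 against Experiment 1 and −1.04 (SE 0.032, adjusted p = 9.72e-17) in Experiment 3 against Experiment 1, or −1.27 and −1.39 on library totals. At the lower input it fell by a further 0.13 on the log2 scale (SE 0.028, edgeR adjusted p = 0.00372). Summed proximal tubule markers lay at 24330 to 25920 CPM in Experiment 1, at 17140 to 17350 CPM in Experiment 2 and at 18270 to 18960 CPM in Experiment 3. Summed endothelial markers, a second site of *Aqp1*, lay at 969.0 to 1063 CPM, 649.2 to 680.3 CPM and 735.8 to 787.8 CPM. These sums are on library totals, where the all-gene median log2 fold change was −0.39 and −0.40 in Experiments 2 and 3 against Experiment 1. With TMM, 4 of 10 proximal tubule markers were called higher and 6 lower in Experiment 2 against Experiment 1. In Experiment 3 against Experiment 1, 3 were higher, 4 lower and 3 not called. Of 7 endothelial markers, 1 was higher and 6 lower, then 2 higher and 5 lower. Over all genes 77.6% and 69.4% were called.

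*Aqp2*, the vasopressin-regulated channel, moved the other way. It had 965.1, 1011 and 1074 CPM in Experiment 1 and 1643, 1692 and 1702 CPM in Experiment 2. In Experiment 3 it reached 2103, 2141 and 2235 CPM. No library of any experiment overlapped those of another. The level rose by 1.09 on the log2 scale (SE 0.027, edgeR adjusted p = 3.71e-23) in Experiment 2 against Experiment 1, by 0.36 (SE 0.018, adjusted p = 2.23e-10) in Experiment 3 against Experiment 2 and by 1.45 (SE 0.033, adjusted p = 1.25e-18) in Experiment 3 against Experiment 1. On library totals the differences were 0.73, 0.36 and 1.09. The summed markers of principal cells, which express *Aqp2*, lay at 1577 to 1812 CPM in Experiment 1, 1052 to 1110 CPM in Experiment 2 and 1084 to 1185 CPM in Experiment 3. The single markers did not move as one. In Experiment 2 against Experiment 1, 2 of 7 tested were higher, 3 lower and 2 not called, beside 77.6% of all genes called. The called ones are named here after their values were seen. *Fxyd4*, a regulator of the sodium pump, rose with *Aqp2*, by 2.10 on the log2 scale (SE 0.070, edgeR adjusted p = 2.6e-20) and by 1.74 on library totals, and *Elf5*, a transcription factor, by 0.52 (SE 0.22, adjusted p = 0.0329), a call lost on library totals (adjusted p = 0.49). *Hsd11b2*, which inactivates glucocorticoids, *Gata3* and *Tfcp2l1*, both transcription factors, were lower, at −0.83 (SE 0.039), −0.63 (SE 0.13) and −0.30 (SE 0.046). On library totals 1 of these markers was higher and 5 were lower, where all genes split into 3409 higher and 6293 lower.

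*Aqp6*, a channel of intracellular vesicles in acid-secreting intercalated cells, had 267.6, 294.9 and 310.2 CPM in Experiment 1. It had 104.2, 111.5 and 117.2 CPM in Experiment 2 and 74.83, 99.0 and 111.7 CPM in Experiment 3. The NEBNext libraries lay above all SMARTseq libraries, and the SMARTseq experiments overlapped. Its log2 fold change was −1.04 (SE 0.046, edgeR adjusted p = 1.19e-17) in Experiment 2 and −1.26 (SE 0.078, adjusted p = 1.31e-11) in Experiment 3, both against Experiment 1, or −1.40 and −1.61 on library totals. Thus *Aqp2* and *Aqp6*, neighbours on chromosome 15, differed in opposite directions between Experiment 1 and the SMARTseq experiments, where kit and input changed together. Experiment 3 against Experiment 2 gave −0.22 (SE 0.078, edgeR adjusted p = 0.0719), which passed without Experiment 3 replicate 2, at −0.26 (adjusted p = 0.0231). Summed intercalated cell markers lay at 901.2 to 1011 CPM, 750.6 to 799.5 CPM and 766.5 to 843.3 CPM in Experiments 1, 2 and 3. With TMM, of 8 such markers 1 was higher, 5 lower and 2 not called in Experiment 2 against Experiment 1. In Experiment 3 against Experiment 1, 1 was higher, 4 lower and 3 not called. Over all genes 77.6% and 69.4% were called in these comparisons.

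*Aqp4*, a basolateral water channel of principal cells, had 217.2, 233.7 and 255.5 CPM in Experiment 1. It had 212.1, 240.1 and 248.5 CPM in Experiment 2 and 186.5, 220.7 and 250.9 CPM in Experiment 3. The ranges of all 3 experiments overlapped. The gene occupied 18:15389496-15410982 on the minus strand. It was the only member whose span was overlapped by another gene in GENCODE M21, AC133525.2 on the plus strand. The authors left regions shared by genes out of their counts, and whether this touched the exons of *Aqp4* was not tested. With TMM it was higher by 0.35 on the log2 scale (SE 0.045, edgeR adjusted p = 7.2e-08) in Experiment 2 and by 0.25 (SE 0.062, adjusted p = 0.00133) in Experiment 3, both against Experiment 1, but library totals gave −0.0035 (adjusted p = 0.946) and −0.10 (adjusted p = 0.144), so its direction rests on the scaling. Experiment 3 against Experiment 2 gave −0.10 (SE 0.059, edgeR adjusted p = 0.281).

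Of the aquaglyceroporins, *Aqp3*, the basolateral partner of *Aqp2*, had 55.21, 64.91 and 69.98 CPM in Experiment 1. It had 79.3, 91.12 and 100.6 CPM in Experiment 2 and 57.0, 70.08 and 76.51 CPM in Experiment 3. Experiment 2 lay above both other experiments, which overlapped each other. The level was higher by 0.85 on the log2 scale (SE 0.067, edgeR adjusted p = 6.3e-12) in Experiment 2 than in Experiment 1, and lower by a difference of −0.39 (SE 0.073, adjusted p = 0.00107) in Experiment 3 than in Experiment 2. Against Experiment 1, Experiment 3 gave 0.46 (SE 0.086, edgeR adjusted p = 7.54e-05), and 0.11 (adjusted p = 0.254) on library totals.

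*Aqp7*, which returns glycerol from the late proximal tubule, had 26.98, 29.67 and 38.77 CPM in Experiment 1. It had 22.66, 24.02 and 31.13 CPM in Experiment 2 and 21.01, 25.22 and 35.82 CPM in Experiment 3, and all ranges overlapped. With TMM no comparison passed, with 0.02 (SE 0.11, edgeR adjusted p = 0.85) in Experiment 2 against Experiment 1, 0.09 (SE 0.14, adjusted p = 0.731) in Experiment 3 against Experiment 2 and 0.12 (SE 0.15, adjusted p = 0.485) in Experiment 3 against Experiment 1. On library totals the first of these turned to −0.33 (SE 0.11, edgeR adjusted p = 0.00542) and the last to −0.24 (SE 0.15, adjusted p = 0.15). *Aqp7* is also the glycerol channel of fat cells. Summed adipocyte markers lay at 44.24 to 61.77 CPM in Experiment 1, 124.4 to 139.1 CPM in Experiment 2 and 124.6 to 135.0 CPM in Experiment 3, and their part in the level of *Aqp7* was not tested.

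*Aqp11*, a channel of the endoplasmic reticulum with a divergent signature, had 22.23, 24.17 and 26.04 CPM in Experiment 1. It had 28.49, 33.77 and 34.57 CPM in Experiment 2 and 29.49, 32.72 and 41.11 CPM in Experiment 3. All SMARTseq libraries were above all NEBNext libraries. The level was higher by 0.79 on the log2 scale (SE 0.089, edgeR adjusted p = 7.05e-09) in Experiment 2 and by 0.85 (SE 0.11, adjusted p = 9.83e-07) in Experiment 3, both against Experiment 1, or 0.43 and 0.50 on library totals. Experiment 3 against Experiment 2 gave 0.06 (SE 0.098, edgeR adjusted p = 0.748).

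*Aqp8*, a channel of inner mitochondrial and plasma membranes, was close to the detection limit and entered no test. Its counts summed to 9, 14 and 19 over the libraries of Experiments 1, 2 and 3. In Experiment 3, replicates 1 and 3 held 9 counts each, those of replicate 1 all in the paternal column and those of replicate 3 all in the maternal column, while replicates 2, 5 and 6 held 0 and replicate 4 held 1. At this depth the libraries with 0 counts do not show that the gene was absent. Of the other family genes, *Mip* had 14, 4 and 10 counts and *Aqp5* had 17, 20 and 36 counts in Experiments 1, 2 and 3, and *Aqp9* and *Aqp12* had 0 counts in all 18 kidney libraries.

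At the lower input, 1 member was higher and 2 were lower in Experiment 3 than in Experiment 2, against a background of 15.7% of 11761 genes called, 8.77% higher and 6.95% lower. In Experiment 3 against Experiment 1, 4 were higher and 2 lower, against 69.4% of 12054 genes called, 34.7% in each direction, and on library totals 2 were higher and 2 lower. Over all genes the latter comparison called 4180 higher and 4187 lower with TMM, and 3113 higher and 5767 lower on library totals. CPM ranges of 5 of 7 members did not overlap between Experiments 1 and 2, where 67.4% of the genes that reached 10 counts in each of the 12 libraries did not. For Experiments 2 and 3 they did not overlap in 2 of 7 members against 10.4% of genes, and for Experiments 1 and 3 in 4 of 7 against 61.0%. The comparisons share libraries and do not count as separate evidence. The median log2 fold change of the 7 members was 0.35 in Experiment 2 against Experiment 1, with −0.03 for all genes, and −0.10 in Experiment 3 against Experiment 2, with −0.00081 for all genes. These medians were 0.25 and −0.04 in Experiment 3 against Experiment 1.

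**Figure D2:**
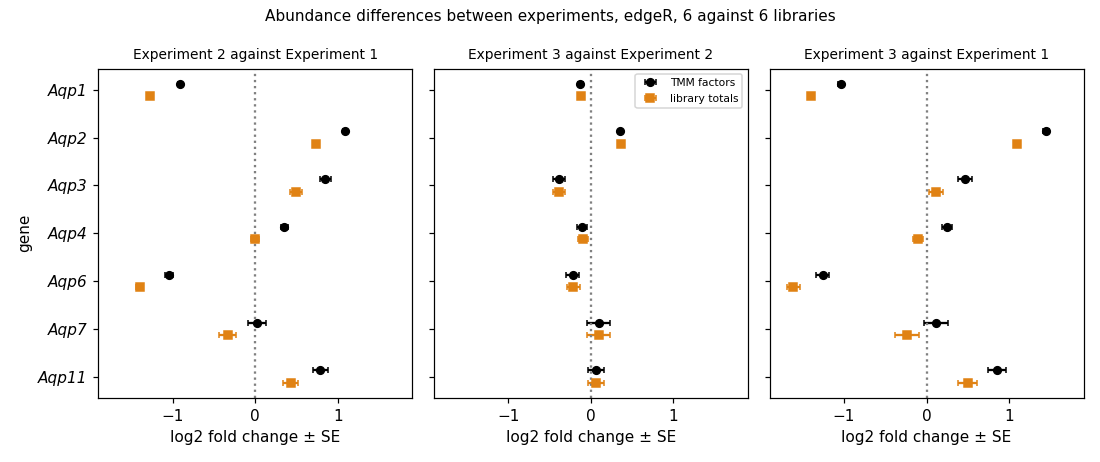
Log2 fold changes of the 7 members in the 3 comparisons between experiments, with TMM factors (circles) and library totals (squares). Bars give the SE from edgeR with 6 against 6 libraries. The scalings nearly coincide in Experiment 3 against Experiment 2 and lie apart by about the shift of 0.36 or 0.35 where Experiment 1 is compared, which places *Aqp4* and *Aqp7* on either side of 0.

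The genes that carry the vasopressin signal to *Aqp2* were followed in a list of 33 genes. In Experiment 2 against Experiment 1, 10 of 26 tested were higher, 14 lower and 2 were not called, beside 77.6% of all genes called, 38.1% higher and 39.4% lower. On library totals 3 were higher and 16 lower, where all genes split into 3409 higher and 6293 lower. *Prkar1a*, a regulatory subunit of protein kinase A, was the called gene with the largest rise, 1.5 on the log2 scale (SE 0.031, edgeR adjusted p = 3.34e-25), followed by *Hspa8*, a chaperone that binds Aqp2, at 0.61 (SE 0.026). *Myo5b*, a motor of recycling vesicles, and *Sipa1l1*, a signalling protein that binds Aqp2, were lowest at −1.33 (SE 0.056) and −1.31 (SE 0.082). All of these kept their direction and call on library totals.

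In Experiment 3 against Experiment 2, 3 of 25 tested genes of the list were higher and 3 lower, beside 15.7% of all genes called. *Vamp2*, a vesicle fusion protein, was higher by 0.67 (SE 0.17, edgeR adjusted p = 0.00984) and *Ezr*, which links membranes to actin, by 0.20 (SE 0.034). *Prkar1a* was lower, at −0.43 (SE 0.023), and so was *Stx3*, a fusion protein of apical membranes, at −0.32 (SE 0.10). Experiment 3 against Experiment 1 had 6 of 26 higher and 13 lower, beside 34.7% of all genes in each direction, with *Prkar1a* at 1.07 (SE 0.037) and *Rab11a*, of recycling endosomes, at 0.78 (SE 0.19) the highest, and *Snap23*, a fusion protein, at −1.50 (SE 0.38) and *Myo5b* at −1.43 (SE 0.081) the lowest. On library totals 3 were higher and 16 lower, beside 3113 and 5767 of all genes, and *Rab11a* no longer passed (adjusted p = 0.0548).

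The second question was whether the alleles of each channel were expressed equally, and whether the preparation changed the answer. Pooled AI was tested against 0.5 by a proportional test with Bonferroni adjustment, after each count had been divided by QCC squared. The mean QCC of Experiments 1, 2 and 3 was 1.85, 1.47 and 2.59. In each experiment 5 of 7 members were called, against backgrounds of 18.4% of 10899 genes, 24.4% of 10739 genes and 14.3% of 10195 genes for Experiments 1, 2 and 3. These backgrounds were not matched to the members for counts. *Aqp1* and *Aqp2* had 98383 and 38586 pooled counts in Experiment 1, and with many counts a small departure from 0.5 can be called. *Aqp1*, *Aqp2*, *Aqp4* and *Aqp7* were called in all 3 experiments, *Aqp6* in Experiment 1 alone and *Aqp3* in Experiments 2 and 3. *Aqp11* was called in none.

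**Figure D3:**
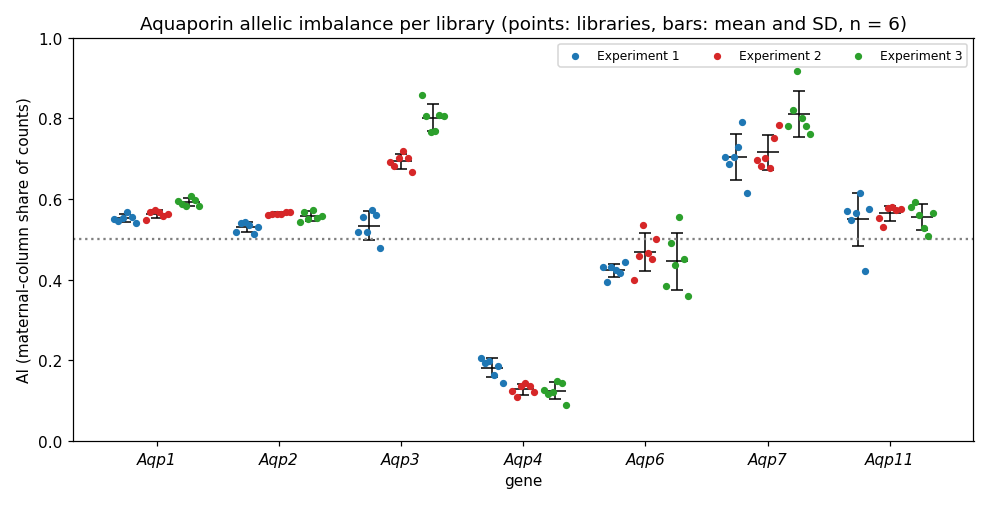
AI of the 7 members in each kidney library, on a linear axis from 0 to 1 with 0.5 dotted, with 1 point for each library, coloured by experiment, and a black bar for the mean and SD over 6 libraries. *Aqp4* lies below 0.5 and *Aqp7* above it in every library, and the 3 experiments separate completely for *Aqp3*.

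*Aqp3* was the member whose AI differed most between preparations. Its 6 libraries gave an AI of 0.479, 0.537 and 0.573 (lowest, median and highest) in Experiment 1. They gave 0.667, 0.697 and 0.718 in Experiment 2 and 0.767, 0.806 and 0.858 in Experiment 3. The 3 ranges did not overlap, from 349 to 640 counts in each library. Pooled AI and its QCC-corrected 95% interval were 0.533 (0.497 to 0.570), 0.694 (0.671 to 0.716) and 0.803 (0.762 to 0.839) for Experiments 1, 2 and 3. As the log2 ratio of the maternal to paternal odds, the difference was 0.98 (SE 0.12, edgeR adjusted p = 5.44e-07) in Experiment 2 against Experiment 1, 0.85 (SE 0.14, adjusted p = 0.00722) in Experiment 3 against Experiment 2 and 1.83 (SE 0.17, adjusted p = 7.53e-07) in Experiment 3 against Experiment 1. The difference between Experiments 2 and 3 did not pass the two-sample QCC-corrected test (Bonferroni-adjusted p = 0.126), and the other 2 differences passed every test run. Pooled paternal counts were 1141 in Experiment 1, 1060 in Experiment 2 and 541 in Experiment 3, and pooled maternal counts 1304, 2402 and 2203.

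*Aqp4* had the AI furthest from 0.5 in each experiment, with most counts in the paternal column. Its libraries gave 0.143, 0.190 and 0.207 in Experiment 1. They gave 0.108, 0.130 and 0.144 in Experiment 2 and 0.0896, 0.124 and 0.149 in Experiment 3. The highest SMARTseq libraries overlapped the lowest NEBNext library. The AI was lower in both SMARTseq experiments than in Experiment 1, with a log2 odds ratio of −0.60 (SE 0.098, edgeR adjusted p = 5.86e-05) in Experiment 2 and −0.66 (SE 0.13, adjusted p = 0.00424) in Experiment 3. Experiment 3 against Experiment 2 gave −0.06 (SE 0.12, adjusted p = 0.955). Both called differences kept their call without Experiment 1 replicate 1, at −0.55 and −0.61.

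*Aqp1* leaned to the maternal column in all 18 libraries, with 0.540, 0.552 and 0.568 in Experiment 1. It had 0.548, 0.566 and 0.572 in Experiment 2 and 0.582, 0.592 and 0.608 in Experiment 3. Experiment 3 lay above the others. Its log2 odds ratio was 0.23 (SE 0.037, edgeR adjusted p = 3.75e-04) in Experiment 3 against Experiment 1, which limma on logit AI did not call (adjusted p = 0.187). The ratio of Experiment 3 against Experiment 2 was 0.17 (SE 0.037, edgeR adjusted p = 0.0428), and this call was lost when any single library other than Experiment 3 replicates 3 and 6 was left out, over a range of 0.15 to 0.18 with adjusted p between 0.0405 and 0.129. It was also lost with the replicate number as a block (adjusted p = 0.144), with a filter of 50 pooled counts (adjusted p = 0.0516), by limma on logit AI (adjusted p = 0.600) and by the two-sample QCC-corrected test (adjusted p = 1.0). Experiment 2 against Experiment 1 gave 0.06 (SE 0.031, adjusted p = 0.235).

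*Aqp2* leaned the same way in all libraries, with 0.515, 0.533 and 0.543 in Experiment 1. It had 0.562, 0.563 and 0.569 in Experiment 2 and 0.542, 0.555 and 0.574 in Experiment 3. Experiment 2 lay above Experiment 1 without overlap. The log2 odds ratio was 0.20 (SE 0.032, edgeR adjusted p = 5.86e-05) in Experiment 2 against Experiment 1, where limma on logit AI made no call (adjusted p = 0.113). In Experiment 3 against Experiment 1 it was 0.16 (SE 0.041, edgeR adjusted p = 0.0224). That call was lost without Experiment 1 replicate 1 (0.15, adjusted p = 0.0545), Experiment 1 replicate 5 (0.14, adjusted p = 0.0626), Experiment 3 replicate 2 (0.15, adjusted p = 0.054) or Experiment 3 replicate 4 (0.14, adjusted p = 0.0548), and by limma (adjusted p = 0.402) and the two-sample QCC-corrected test (adjusted p = 0.196). Experiment 3 against Experiment 2 gave −0.04 (SE 0.03, edgeR adjusted p = 0.828).

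*Aqp6* leaned to the paternal column in Experiment 1, with 0.394, 0.427 and 0.443. It had 0.400, 0.463 and 0.537 in Experiment 2 and 0.359, 0.444 and 0.554 in Experiment 3, so single SMARTseq libraries lay on both sides of 0.5. The pooled values and QCC-corrected 95% intervals were 0.423 (0.406 to 0.440), 0.471 (0.449 to 0.493) and 0.450 (0.410 to 0.491) for Experiments 1, 2 and 3. These intervals rest on a single QCC for all genes of an experiment, 1.47 in Experiment 2 and 2.59 in Experiment 3. The SD of the AI of *Aqp6* between libraries was 2.48 and 3.56 times the binomial SD there. Its SMARTseq intervals may therefore be too narrow for its own spread, though a ratio over 6 libraries is imprecise and was not tested. That these intervals leave out 0.5 is not read as a bias. Experiment 2 against Experiment 1 gave a log2 odds ratio of 0.27 (SE 0.094, edgeR adjusted p = 0.0649), which passed without Experiment 2 replicate 1 at 0.35 (adjusted p = 0.00941). The other comparisons gave 0.14 (SE 0.15) in Experiment 3 against Experiment 1 and −0.13 (SE 0.18) in Experiment 3 against Experiment 2. The AI of *Aqp6* was called in Experiment 1 and not in the SMARTseq experiments, but the difference itself was not called. In Experiment 2 it was called with Benjamini-Hochberg adjustment (adjusted p = 0.0214), and in Experiment 3 without QCC correction (adjusted p = 8.28e-06).

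*Aqp7* took most counts from the maternal column in every library, with 0.614, 0.703 and 0.792 in Experiment 1. It had 0.678, 0.700 and 0.784 in Experiment 2 and 0.763, 0.791 and 0.918 in Experiment 3, and the ranges overlapped. Pooled AI was 0.700, 0.715 and 0.808 on 1203, 960 and 1063 counts. Its log2 odds ratio was 0.85 (SE 0.29, edgeR adjusted p = 0.0982) in Experiment 3 against Experiment 1, 0.78 (SE 0.27, adjusted p = 0.363) in Experiment 3 against Experiment 2 and 0.08 (SE 0.21, adjusted p = 0.891) in Experiment 2 against Experiment 1. At this depth none of these differences was detectable. *Aqp7* and its chromosome 4 neighbour *Aqp3* were the members with a pooled AI above 0.6 in any experiment, *Aqp7* in all 3 and *Aqp3* in Experiments 2 and 3. That cut was set after the values were seen, and *Aqp1* reached 0.592 in Experiment 3. *Aqp3* had 0.533 in Experiment 1, and a shared effect on the neighbours was not tested.

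*Aqp11* had 0.421, 0.568 and 0.615 in Experiment 1. It had 0.531, 0.574 and 0.579 in Experiment 2 and 0.507, 0.563 and 0.592 in Experiment 3. Pooled AI was 0.550, 0.565 and 0.554, and the log2 odds ratio lay at 0.09 (SE 0.19), −0.06 (SE 0.16) and 0.03 (SE 0.22) in Experiment 2 against 1, 3 against 2 and 3 against 1. None passed. Its bias in Experiment 2 was called with Benjamini-Hochberg adjustment (adjusted p = 0.00496), by an edgeR allele term (adjusted p = 0.00503) and without QCC correction (adjusted p = 0.0477).

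Differential AI was called for 3 of 7 members in Experiment 2 against Experiment 1, 2 with a higher and 1 with a lower AI, against a background of 10.6% of 10127 genes, 5.61% higher and 4.95% lower. It was called for 2 of 7, both higher, in Experiment 3 against Experiment 2, against 0.659% of 10020 genes (0.319% higher and 0.339% lower), and for 4 of 7 in Experiment 3 against Experiment 1, 3 higher and 1 lower, against 6.24% of 9733 genes (3.32% higher and 2.92% lower). AI ranges did not overlap for 2 of 7 members in each comparison, against 6.32%, 1.16% and 4.89% of genes. None of these backgrounds was matched for counts, and a difference is more easily called in a gene with many counts. The median log2 odds ratio of the 7 members was 0.09, −0.04 and 0.16 in Experiment 2 against 1, 3 against 2 and 3 against 1, with −0.00098, 0.0033 and 0.0035 for all genes. Of 25 tested genes of the vasopressin list, differential AI was called for *Vamp3*, *Adcy6* and *Hspa8* in Experiment 2 against Experiment 1, for *Prkar1a* in Experiment 3 against Experiment 2 and for *Prkar1a*, *Adcy6* and *Hspa8* in Experiment 3 against Experiment 1. *Adcy6*, the adenylyl cyclase that answers vasopressin, had log2 odds ratios of −0.40 (SE 0.083) and −0.43 (SE 0.11) against Experiment 1.

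Single libraries differed in which channels they would call. With QCC correction *Aqp1* and *Aqp4* were called in all 6 libraries of each experiment. For Experiments 1, 2 and 3 in turn, *Aqp2* was called in 0, 6 and 5 of 6 libraries with correction and in 4, 6 and 6 without. *Aqp3* was called in 0, 6 and 3 libraries with correction and in 0, 6 and 6 without. *Aqp6* was called in 1, 0 and 0 with correction and in 6, 1 and 2 without. *Aqp7* was called in 0, 1 and 0 with correction and in 5, 4 and 6 without, although its pooled counts were called in each experiment. *Aqp11* was called in no single library by either test.

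The spread of AI between libraries was set against binomial sampling at the same counts, as the ratio of the observed to the binomial SD over 6 libraries. Over all genes the median ratio of Experiments 1, 2 and 3 was 1.63, 1.30 and 2.11. *Aqp6* had the largest ratio of the members in both SMARTseq experiments, 2.48 and 3.56, above the upper quartile of all genes, and 1.48 in Experiment 1. *Aqp1* went from 2.45 in Experiment 1 to 1.51 and 1.63, and *Aqp2* from 1.88 to 0.595 in Experiment 2 and 2.80 in Experiment 3. *Aqp4* had 2.41, 1.54 and 2.43. The remaining members lay between 0.551, for *Aqp11* in Experiment 2, and 1.86, for *Aqp7* in Experiment 3. The ratio exceeded the median of all genes in 5 of 7 members in Experiment 1 and in 3 of 7 in each SMARTseq experiment. Besides *Aqp6*, the ratio exceeded the mean QCC of the experiment for *Aqp1*, *Aqp2* and *Aqp4* in Experiment 1. It also did so for *Aqp1* and *Aqp4* in Experiment 2 and for *Aqp2* in Experiment 3. Their QCC-corrected intervals and calls may carry the same limit as those of *Aqp6*. Over 6 libraries such a ratio is itself imprecise, and it was not tested.

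**Figure D4:**
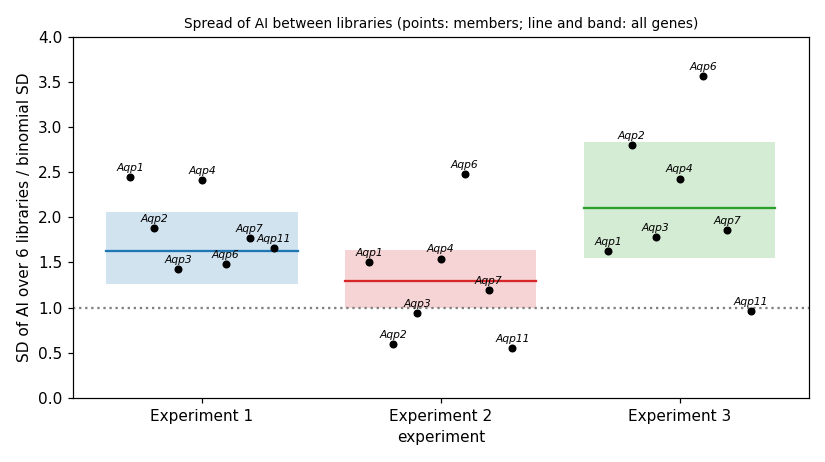
SD of AI over the 6 libraries of an experiment divided by the SD that binomial sampling gives, for the 7 members (points). The coloured line is the median over all genes with at least 50 pooled counts, the band its quartiles, and the dotted line marks a ratio of 1. *Aqp6* lies above the band in both SMARTseq experiments.

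The level itself also varied within an experiment. For the 7 members the coefficient of variation of CPM ranged from 0.026 to 0.142 in Experiment 1, where the median over all genes was 0.149. The Experiment 2 range was 0.0136 to 0.122, beside an all-gene median of 0.124. The Experiment 3 range was 0.0267 to 0.225, beside a corresponding median of 0.201. Only *Aqp7* in Experiment 3 exceeded the median of all genes. The all-gene medians were not matched to the members for counts. Whether the members varied less than genes with similar counts was not tested.

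The gene most like each member in its level across the 18 libraries was taken as the one with the smallest Euclidean distance between log2(CPM + 0.5) values centred over the libraries, among 9626 genes. It was *Abat* for *Aqp1* (distance 0.282), *Cgref1* for *Aqp2* (0.295), *Dap3* for *Aqp4* (0.375) and *Btf3* for *Aqp11* (0.466). It was *Bod1* for *Aqp3* (0.504), *Rpl7a* for *Aqp6* (0.524) and *Slc16a11* for *Aqp7* (0.582), and the median distance to all genes lay between 1.98 for *Aqp4* and 2.91 for *Aqp2*. No member was the nearest gene of another.

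In the B cell clones the kidney channels were mostly undetected. Those libraries held 19213150 to 22241719 allelic counts in Abl.1 and 43769967 to 44388890 in Abl.2, and their summed pre-B cell markers lay between 6376 and 8269 CPM, while summed principal cell markers reached at most 0.823 CPM. *Aqp2*, *Aqp3*, *Aqp4* and *Aqp6* had 0 counts in all 4 libraries, which allows up to 0.156 CPM in the shallowest, from a limit of 3 counts. *Aqp1* was the exception, with 324 and 713 counts (16.9 and 32.1 CPM, AI 0.299 and 0.311) in Abl.1 and 0 counts in both Abl.2 libraries, which allows up to 0.0685 CPM. The maternal-column share of *Aqp1* in Abl.1 thus lay below 0.5, where all kidney libraries lay above it. Whether the column of that name holds the same allele in the clones as in the kidney was not tested. *Aqp7* had 0 counts in Abl.1 and 11 and 16 in Abl.2, *Aqp8* had 17 and 0 in Abl.1 and 9 and 20 in Abl.2, and *Aqp11* had 18 and 11 in Abl.1 and 7 and 10 in Abl.2. Each line is 1 clone and its table was sampled separately from the kidney's, so these values stand beside the kidney's without a test. Limits set by 3 counts cover counting error only, while the AI intervals also carry the spread between libraries through a single QCC for all genes of an experiment.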

How the data were processed

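RNA-seq libraries were compared from 18 kidney samples in 3 experiments and from the Abl.1 and Abl.2 clones, grouped by their titles. The authors aligned reads with STAR 2.5.4a to GRCm38 pseudogenomes of both strains, drew equal numbers of reads, took allele counts at SNPs from samtools mpileup and added them up over merged exons, and the deposited tables hold these raw counts for each allele without normalization. AI tables were not used, and the 2 runs of each Abl.2 library were summed. No column was left unmapped.

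Abundance and differential AI (an allele by experiment term beside library and allele) were fitted over all genes with edgeR 4.0.16 in R 4.3.3 (quasi-likelihood test, Benjamini-Hochberg adjustment, threshold 0.05), after a filter of 10 counts in at least 6 libraries, or in every library for AI. The AI test against 0.5 and QCC followed the paper's methods (bins of base 1.05 with at least 40 genes, mean coverage of at least 50 and 7 quantiles), with these departures. No continuity correction was applied, and the outlying Experiment 1 replicate 1 was kept in the main fit. For Experiment 1, QCC was fitted on counts thinned to equal totals, while the test used all counts. AI intervals are Wilson intervals at 95% on counts divided by the square of QCC. Alternatives used DESeq2 1.42.0, limma 3.58.1 on logit AI (0.5 added before the logit), other filters and scalings, and fits without each library. The edgeR, DESeq2 and limma fits between groups, and QCC with the two-sample test, were tried on simulated data. The AI test against 0.5, the edgeR allele term and the fits with a replicate block were not. Total counts per kidney library, 6138693 to 6702351, limit the precision, most for members under 50 pooled counts. No UMIs were used, so reads copied by PCR were counted.

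Every member was named in each result that it entered, with the other family genes, the gene most like each member, and the 2 called genes of the vasopressin list with the largest change in each direction. The members and lists were chosen with earlier results of these data known.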

Additional observations from a re-analysis of the deposited data

Results flagged for a closer look

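*Aqp7* in Experiment 2 replicate 1 had 31.1 CPM, above 22.7 to 24.7 CPM in the other 5 libraries, a gap of 0.756 of the whole range. *Aqp11* in Experiment 1 replicate 5 had an AI of 0.421, below 0.548 to 0.615 in the others, a gap of 0.653 of the range. These were 2 of 42 groups of 6 libraries examined, and chance flags about 1 in 20 groups. AI differed between experiments by the edgeR interaction test for 3 members in Experiment 2 against Experiment 1, with log2 odds ratios of 0.20 for *Aqp2*, 0.98 for *Aqp3* and −0.60 for *Aqp4*. It differed for 2 members in Experiment 3 against Experiment 2, 0.17 for *Aqp1* and 0.85 for *Aqp3*. In Experiment 3 against Experiment 1 it differed for 4, 0.23 for *Aqp1*, 0.16 for *Aqp2*, 1.83 for *Aqp3* and −0.66 for *Aqp4*.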

How the results depend on the processing

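The number of members called for abundance did not change with DESeq2's size factors or Wald test, other filters or single libraries left out by more than 1 (6 to 6, 3 to 4 and 6 to 6 without single libraries, in Experiment 2 against 1, 3 against 2 and 3 against 1). Library totals, chosen after seeing the data, turned *Aqp4* to −0.0035 and *Aqp7* to −0.33 in Experiment 2 against Experiment 1, and to −0.10 and −0.24 in Experiment 3 against Experiment 1. The turn follows from the shift of all genes between scalings. Without single libraries, *Aqp7* lay between −0.038 and 0.078, −0.0078 and 0.16, and 0.02 and 0.19 in the 3 abundance comparisons, never called. For differential AI in Experiment 3 against Experiment 2, the 2 member calls became 0 with the two-sample QCC-corrected test, 1 with limma, 1 with a filter of 50 pooled counts and 1 to 2 without single libraries, and the 66 calls over all genes became 26 with limma and 30 to 66 without single libraries. In Experiment 3 against Experiment 1, limma left 2 of the 4 member calls, and the two-sample test gave 286 calls over all genes in place of 607. In Experiment 2 against Experiment 1 the 1069 calls over all genes became 428 with the two-sample test and 691 with limma. Uncalled log2 odds ratios crossed 0 without single libraries for *Aqp7* (−0.0504 to 0.20) and *Aqp11* (−0.059 to 0.16) in Experiment 2 against 1, for *Aqp4* (−0.13 to 0.035) and *Aqp11* (−0.098 to 0.00302) in 3 against 2, and for *Aqp11* (−0.12 to 0.11) in 3 against 1. The causes of these changes were not tested. Bias calls over all genes in Experiment 1 rose from 2002 to 3827 without QCC correction, 3996 with Benjamini-Hochberg adjustment and 3758 with the edgeR allele term. In Experiment 2 they rose from 2623 to 4860 with Benjamini-Hochberg adjustment and 4726 with the edgeR term, and in Experiment 3 from 1453 to 4104, 3034 and 2627. The 5 member calls per experiment stayed at 5 without any single library.

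Replicate numbers did not pair the libraries: correlations of same-numbered libraries lay between −0.033 and 0.024. Over abundance and AI in the 3 comparisons, the same number out of 6 gave the best correlation in 8 of 36 cases, which reuse the same libraries. With the replicate block, the calls of differential AI in Experiment 3 against Experiment 2 went from 66 to 28 over all genes and from 2 to 1 member.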
